A study of Rattus norvegicus with 294 samples.

Results

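Osteoblasts were set against bone lining cells of vehicle-treated ovariectomized rats, across 11424 genes and 8 days. The arrays were taken by their labels alone, as the vehicle arrays named osteoblast or lining cell at any day. They numbered 80 of 294 in the series, 40 of osteoblasts and 40 of lining cells, with 5 of each on days 8, 29, 85, 183, 197, 237, 267 and 309. All rats were female Sprague-Dawley animals whose ovaries had been removed at 6 months of age, and the ovariectomy was shared by every group. After 8 weeks without treatment they received a weekly subcutaneous injection of vehicle, 3 mg/kg or 50 mg/kg of an antibody against sclerostin (Scl-Ab) until day 183. Days 197 to 309 fell in a treatment-free period. Cells were cut by laser capture from frozen sections of the third lumbar vertebra. Calcein green, a dye that binds to bone as mineral is laid down, had been given at 10 mg/kg 13 and 3 days before death to mark forming surfaces. The captures are enriched for the named cell, not pure, and come from the first 5 rats of a group and day. The labels do not tie an array to a rat, so osteoblast and lining cell arrays could not be paired.

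Osteoblasts are the cuboidal cells of forming bone surfaces. They secrete type I collagen with smaller amounts of other collagens and with osteocalcin and related proteins, and the matrix then mineralizes. Lining cells are the flat cells of quiescent surfaces. They belong to the osteoblast lineage and can return to matrix production, and inhibition of sclerostin, a blocker of Wnt signalling made by osteocytes, is known to bring this about. Osteoclasts, the multinucleated cells that resorb bone, come from the blood lineage.

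Values are log2 of the deposited array signal after all 80 arrays were given the same distribution by quantile normalization, and a difference is the osteoblast level minus the lining cell level. A difference of 1 is a factor of 2. Each gene was tested with day as a covariate, and a gene was called at an adjusted p under 0.05 (limma, Benjamini-Hochberg over all genes tested). The captures had been deposited on different scales: the median log2 signal of an array was 3.44 to 3.71 in osteoblasts and 3.14 to 3.34 in lining cells, with no overlap. Quantile normalization put the median difference of all genes at -0.01, against 0.43 on the deposited scale, so directions are relative to the typical gene. It does not remove offsets of single probe sets between captures that were processed apart. Which arrays were processed together is not stated. Such offsets therefore cannot be told apart from differences between the cells, also where a difference is small or of 1 sign on all days. Of the 4326 called genes, 4224 (97.6%) lay on the same side of the median difference on the deposited scale. So did all 47 called genes given here with a value as higher and all 30 given as lower. Centring the arrays moved the differences of all genes by 1 constant and so left this unchanged. On the deposited scale itself, 22 of the 30 had a difference above 0. The signal range of an array (90th minus 50th percentile) was 2.59 to 3.66 in osteoblasts and 2.61 to 3.45 in lining cells, with medians of 3.41 and 3.12. The array of osteoblasts on day 85, replicate 4, stood apart from its group at 2.95, and 2174 genes were higher and 2198 lower without it.

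**Figure D1:**
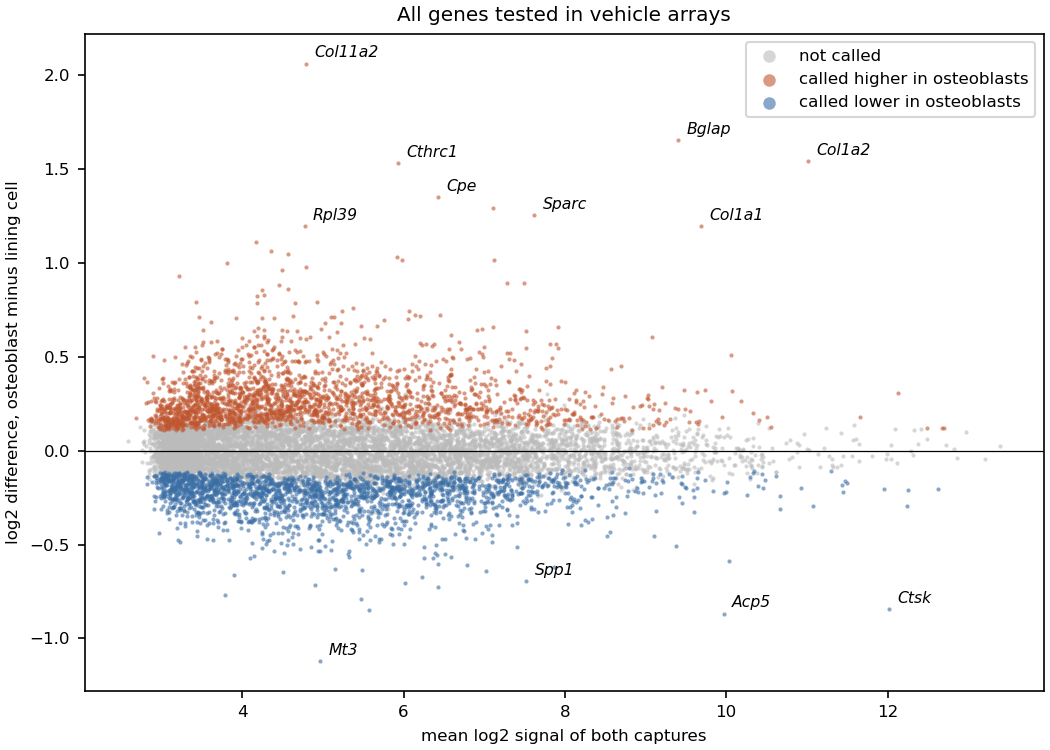
Difference between captures (osteoblast minus lining cell, log2) for each of 11424 genes against the mean log2 level of the 80 vehicle arrays, with genes of interest named. The called genes spread on both sides of 0, and the differences past 1 lie nearly all on the side of osteoblasts.

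The captures differed at many genes by small amounts and at few genes by much. Called genes numbered 4326 (37.9% of those tested), of which 2146 (18.8%) were higher and 2180 (19.1%) lower in osteoblasts. The median size of a called difference was 0.23, a factor of 1.17, and 4125 of the 4326 were under 0.5. A difference of at least 1 was reached by 15 genes higher in osteoblasts (0.131%) and by 1 gene lower in osteoblasts (0.00875%). The 15 were Col11a2, Bglap, Col1a2, Cthrc1, Cpe, Col5a2, Sparc, Rpl39, Col1a1, Ablim3, Col22a1, Cpq, Dcn, Serpinf1 and Ndufc1, most of them genes of collagen and bone matrix, and the 1 was Mt3. Of the genes tested, 1811 (15.9%) were called and had a difference of the same sign on each of the 8 days, called within the day or not. The arrays of the captures did not overlap at 2 genes (0.0175%), Rpl39 and Tbcc, and Tbcc and Ndufc1 are named because of these counts, after their values were seen. On the deposited scale 10880 genes were called higher and 23 lower, and with each array centred on its median 4717 were higher and 1051 lower. With arrays centred on the median of the genes tested, 1362 were higher and 4802 lower. With signal range as a covariate 2690 of the 4326 calls were kept, and of the genes described below Alpl, Dkk3, Ibsp, Igf2, Igfbp6, Smad7 and Tcirg1 lost theirs. Of the markers that define osteoblasts, Bglap, Col1a1, Col1a2 and Ibsp were higher in the osteoblast capture, Alpl was lower, and Runx2 and Sp7 were not among the genes named on the array. All 5 measured markers were present in the lining cell capture too. Less RNA per cell and fewer cells of a type cannot be told apart in captures of this kind.

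**Figure D2:**
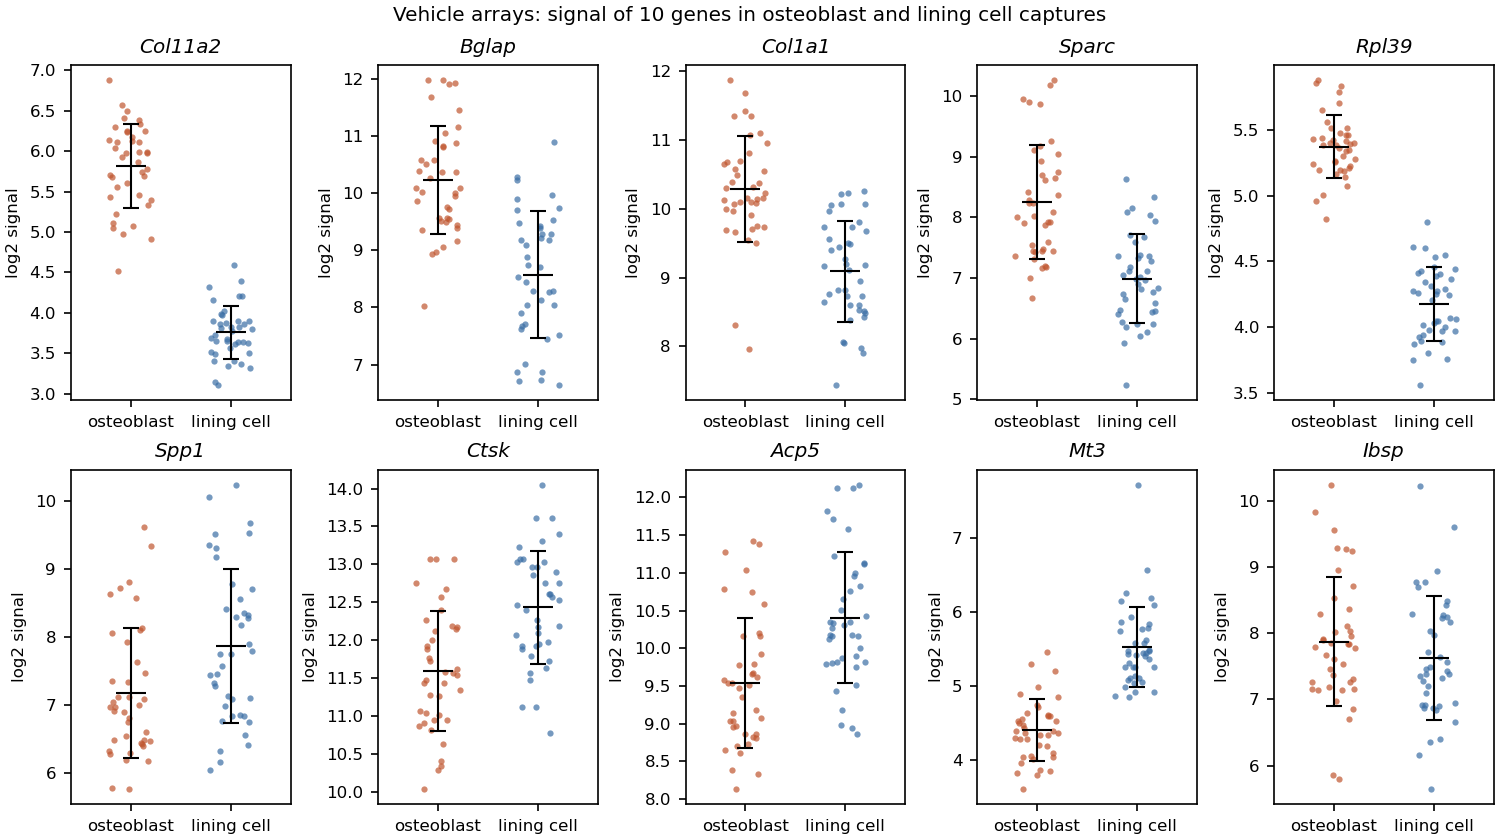
Log2 level of 10 genes in each of the 40 osteoblast arrays (left in each pair) and 40 lining cell arrays (right), with the mean and SD. Col11a2 and Rpl39 separate the captures almost or fully, whereas Bglap, Col1a1 and Sparc are shifted but overlap, and Acp5, Ctsk, Spp1 and Mt3 lie lower in osteoblasts.

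Collagen chains of bone were the list with the highest median difference among the 33 lists examined. All 13 were tested, and 7 were higher and 1 was lower in osteoblasts, beside 18.8% and 19.1% of all genes. The median difference was 0.48, against -0.01 over all genes, and so lay 0.49 above it. On the deposited scale the list median lay 0.31 above that of all genes, and 12 were called higher and 0 lower. With arrays centred on the median of the genes tested, 7 were higher and 3 lower. The minor fibrillar chain Col11a2, which forms type XI collagen in the core of fibrils, had the largest difference of all genes tested. Its log2 level was 4.52, 5.95 and 6.88 (lowest, median, highest) in osteoblasts and 3.11, 3.75 and 4.59 in lining cells. Of the osteoblast arrays, 39 lay above every lining cell array. The difference was 2.06 (SE 0.09, adjusted p = 6.08e-33), a factor of 4.18, and 40 of 40 osteoblast arrays were above the lining cell mean of their day.

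The chains of type I collagen, the main protein of bone matrix, were also higher in osteoblasts. Col1a2 was 9.49, 11.68 and 13.30 (lowest, median, highest) in osteoblasts and 8.58, 10.43 and 11.70 in lining cells. Col1a1 was 7.96, 10.19 and 11.86 in osteoblasts and 7.45, 9.14 and 10.25 in lining cells. The ranges overlapped for both genes, and 19 osteoblast arrays lay above every lining cell array in each case. Differences were 1.54 (SE 0.13, adjusted p = 2.20e-16, higher in 39 of 40 arrays) for Col1a2 and 1.20 (SE 0.12, adjusted p = 4.58e-13, higher in 38 of 40 arrays) for Col1a1. The partners of type I fibrils followed: type V chains Col5a2 and Col5a1 differed by 1.30 and 0.90, and Col11a1 by 0.96. A second Col5a1 probe set differed by 0.10 (SE 0.09) and other Col11a1 probe sets, of lower signal, by 0.12 and 0.06, whereas second sets of Col5a2, Col1a1 and Col1a2 differed by 1.86, 1.55 and 1.67. Col24a1, another fibrillar chain, differed by 0.48 and is the member at the list median. Its mean level of 3.03 was below the array median of 3.39. Col14a1, a collagen on the surface of fibrils, was lower by a small amount (-0.15, SE 0.05, adjusted p = 0.0126, lower in 29 of 40 arrays), and its difference was 0.09 on the deposited scale. Col3a1, abundant in soft connective tissue, was not called (0.20, SE 0.09, adjusted p = 0.0881). Col22a1, not on the list, was 3.89 to 6.16 in osteoblasts and 2.70 to 5.03 in lining cells, and differed by 1.07 (SE 0.08, adjusted p = 6.14e-19, higher in 40 of 40 arrays).

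Of 24 non-collagenous matrix genes tested, 11 were higher and 4 lower in osteoblasts, beside 18.8% and 19.1% of all genes, with a median difference of 0.11 (9 and 8 with arrays centred on the median of the genes tested). Bglap encodes osteocalcin, the vitamin K-dependent protein that is secreted by mature osteoblasts. It was 8.02, 10.09 and 11.97 (lowest, median, highest) in osteoblasts and 6.65, 8.62 and 10.90 in lining cells. The ranges overlapped, and 9 osteoblast arrays lay above every lining cell array. The difference was 1.65 (SE 0.13, adjusted p = 3.55e-18), a factor of 3.15. By the looser measure of the lining cell mean of the day, 39 of 40 osteoblast arrays were above it.

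The promoters of Bglap and Sparc, higher in osteoblasts, and of Ctsk, lower in osteoblasts, are shown as examples of matrix and resorption genes. Each is the 250 bases before the annotated start, read 5′ to 3′ along the gene (RefSeq, GRCr8). Bglap lies at chr2:176137319-176137568 on the minus strand, Sparc at chr10:40038817-40039066 on the minus strand and Ctsk at chr2:185747298-185747547 on the plus strand. Capitals mark the letters TGTGGT, the core bound by RUNX factors such as the osteoblast regulator RUNX2, TATAAA (the TATA box) and CCAAT, on either strand.
Bglap: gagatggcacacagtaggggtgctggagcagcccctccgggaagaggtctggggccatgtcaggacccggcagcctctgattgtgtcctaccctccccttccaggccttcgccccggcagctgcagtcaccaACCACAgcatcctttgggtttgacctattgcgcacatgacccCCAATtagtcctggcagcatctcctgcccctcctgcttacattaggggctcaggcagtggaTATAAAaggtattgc
Sparc: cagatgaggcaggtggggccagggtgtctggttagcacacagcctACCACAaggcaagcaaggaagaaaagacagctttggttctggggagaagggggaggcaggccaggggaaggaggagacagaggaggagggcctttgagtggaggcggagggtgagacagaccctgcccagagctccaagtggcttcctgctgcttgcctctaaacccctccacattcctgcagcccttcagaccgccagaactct
Ctsk: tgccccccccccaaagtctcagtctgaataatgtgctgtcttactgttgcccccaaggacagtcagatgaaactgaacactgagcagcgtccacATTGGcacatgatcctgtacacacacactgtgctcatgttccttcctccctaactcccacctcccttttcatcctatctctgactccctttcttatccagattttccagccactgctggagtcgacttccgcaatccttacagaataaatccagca
In the Bglap window the RUNX letters begin 118 bases, CCAAT 76 bases and TATAAA 15 bases before the start. The Sparc window holds the RUNX letters at 205 bases, and the Ctsk window holds CCAAT at 156 bases. The windows of Col11a2 and Col1a2, also higher in osteoblasts, were searched too and are not shown, although these genes differed by more (2.06 and 1.54) than Sparc (1.26). Neither holds the RUNX letters. The Col1a2 window holds CCAAT at 221 bases and TATAAA at 170 bases, and the Col11a2 window neither. Across 10631 such windows of tested genes (9475 of 11424 genes matched by gene ID), TGTGGT was present in 11.1% of windows of genes higher and 10.2% of those lower in osteoblasts, against 11.4% of all. TATAAA was present in 6.45% of windows of higher genes and 6.81% of those of lower genes, against 6.95% of all, and CCAAT in 34.2% and 34.2%, against 34.8%. A further 4 sets of letters were searched on both strands and are not in capitals: TGANTCA (AP-1), GGGCGG (GC box), CACGTG (E-box) and GAGGAA (ETS core of PU.1). Of these, GAGGAA was found in the Ctsk window, 114 bases before the start, and none in the Bglap, Sparc or Col1a2 windows. The Col11a2 window holds GAGGAA at 152 bases and GGGCGG at 80, 76 and 47 bases. GAGGAA was present in 21.7% of windows of higher genes and 23.7% of those of lower genes, against 23.1% of all. The shares in the same order were 57.7%, 53.9% and 55.5% for GGGCGG, 4.69%, 4.54% and 4.81% for TGANTCA, and 7.97%, 7.52% and 7.9% for CACGTG. The letters were about as frequent in promoters of called genes as in those of all genes tested, and a match is a description, not a bound site. The table has no promoter for Col1a1.

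Sparc encodes osteonectin, a collagen- and mineral-binding protein. It was 6.67, 8.05 and 10.26 in osteoblasts and 5.24, 6.98 and 8.64 in lining cells (lowest, median, highest). The ranges overlapped, and 38 of 40 osteoblast arrays were above the lining cell mean of their day, with a difference of 1.26 (SE 0.11, adjusted p = 8.39e-16). Cthrc1, a secreted protein with a collagen repeat made by bone and wound cells, was 4.66, 6.38 and 8.93 in osteoblasts and 3.94, 5.08 and 6.64 in lining cells. It was higher in 39 of 40 osteoblast arrays, with a difference of 1.53 (SE 0.12, adjusted p = 5.39e-19). The small leucine-rich proteoglycans Dcn (decorin) and Omd (osteomodulin) bind collagen fibrils, and differed by 1.03 (SE 0.11, adjusted p = 1.63e-12) and 0.82 (SE 0.08, adjusted p = 2.74e-15). The matrix protein Thbs4 differed by 0.89 (SE 0.11, adjusted p = 3.36e-10, higher in 35 of 40 arrays).

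The acidic glycoproteins of bone matrix did not move together. Spp1 (osteopontin), which osteoclasts and macrophages make as well as bone-forming cells, was lower in osteoblasts: 5.76, 6.97 and 9.63 in osteoblasts and 6.03, 7.74 and 10.24 in lining cells (lowest, median, highest). The ranges overlapped almost fully, while 34 of 40 osteoblast arrays lay below the lining cell mean of their day (-0.70, SE 0.12, adjusted p = 2.95e-06). Spp1 was not called on the deposited scale. Ibsp (bone sialoprotein) was 5.80, 7.81 and 10.24 in osteoblasts and 5.65, 7.44 and 10.23 in lining cells. Its difference of 0.25 (SE 0.10, adjusted p = 0.0491, higher in 30 of 40 arrays) lay close to the threshold. Leaving out 1 array in turn gave adjusted p between 0.0180 and 0.0822 and ended the call in 45 of 80 cases. Dmp1, which is most abundant in osteocytes and needed for mineralization, was 5.17, 7.03 and 9.49 in osteoblasts and 3.81, 6.41 and 8.90 in lining cells, a difference of 0.64 (SE 0.14, adjusted p = 0.000141, higher in 32 of 40 arrays). It was not called from days 8 to 183 alone. Mepe, the remaining member measured, was not called (-0.19, SE 0.15, adjusted p = 0.357). Postn (periostin), a matricellular protein of the periosteum, was not called either (0.08, SE 0.12, adjusted p = 0.63).

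Enzymes of collagen synthesis and cross-linking were higher in osteoblasts for 13 of 24 members tested and lower for 4, beside 18.8% and 19.1% of all genes, with a median of 0.20. Pcolce, which speeds the removal of the procollagen C-propeptide, differed by 0.74 (SE 0.09, adjusted p = 5.73e-11). Lox, the lysyl oxidase that starts cross-linking, was 3.05 to 5.13 in osteoblasts and 2.57 to 4.15 in lining cells, and was above the lining cell mean of the day in 40 of 40 osteoblast arrays (0.71, SE 0.07, adjusted p = 3.41e-14). The lysyl hydroxylases went opposite ways. Plod2, which modifies the telopeptides, was higher (0.58, SE 0.08, adjusted p = 4.00e-09), whereas Plod1, which modifies the helix, was lower (-0.39, SE 0.07, adjusted p = 1.89e-06, lower in 32 of 40 arrays). The deposited scale gave 0.14 for Plod1.

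Genes of mineralization were split, with 4 of 13 higher, 3 lower and a median of 0.07, beside 18.8% and 19.1% of all genes. Serpinf1 encodes pigment epithelium-derived factor, whose loss causes a form of brittle bone disease with poor mineralization. It was 5.99, 7.52 and 9.40 in osteoblasts and 4.85, 6.59 and 8.41 in lining cells, a difference of 1.02 (SE 0.13, adjusted p = 5.31e-10, higher in 35 of 40 arrays). Slc13a5, a citrate transporter, was 4.30, 5.22 and 6.41 in osteoblasts and 3.43, 4.22 and 5.24 in lining cells, a difference of 0.98 (SE 0.08, adjusted p = 3.28e-17, higher in 38 of 40 arrays). Both genes had overlapping ranges. Smpd3, a sphingomyelinase required for skeletal mineralization, differed by 0.46 (SE 0.09, adjusted p = 2.12e-05). The enzymes that set the level of pyrophosphate, a mineralization inhibitor, were lower in osteoblasts: Enpp1, which makes it, by -0.44 (SE 0.05, adjusted p = 1.95e-10, lower in 39 of 40 arrays) and Alpl, the bone alkaline phosphatase that degrades it, by -0.24 (SE 0.08, adjusted p = 0.0196, lower in 30 of 40 arrays). The deposited scale gave 0.03 and 0.29, and the call of Alpl was lost when arrays were centred on their medians or signal range was a covariate.

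**Figure D3:**
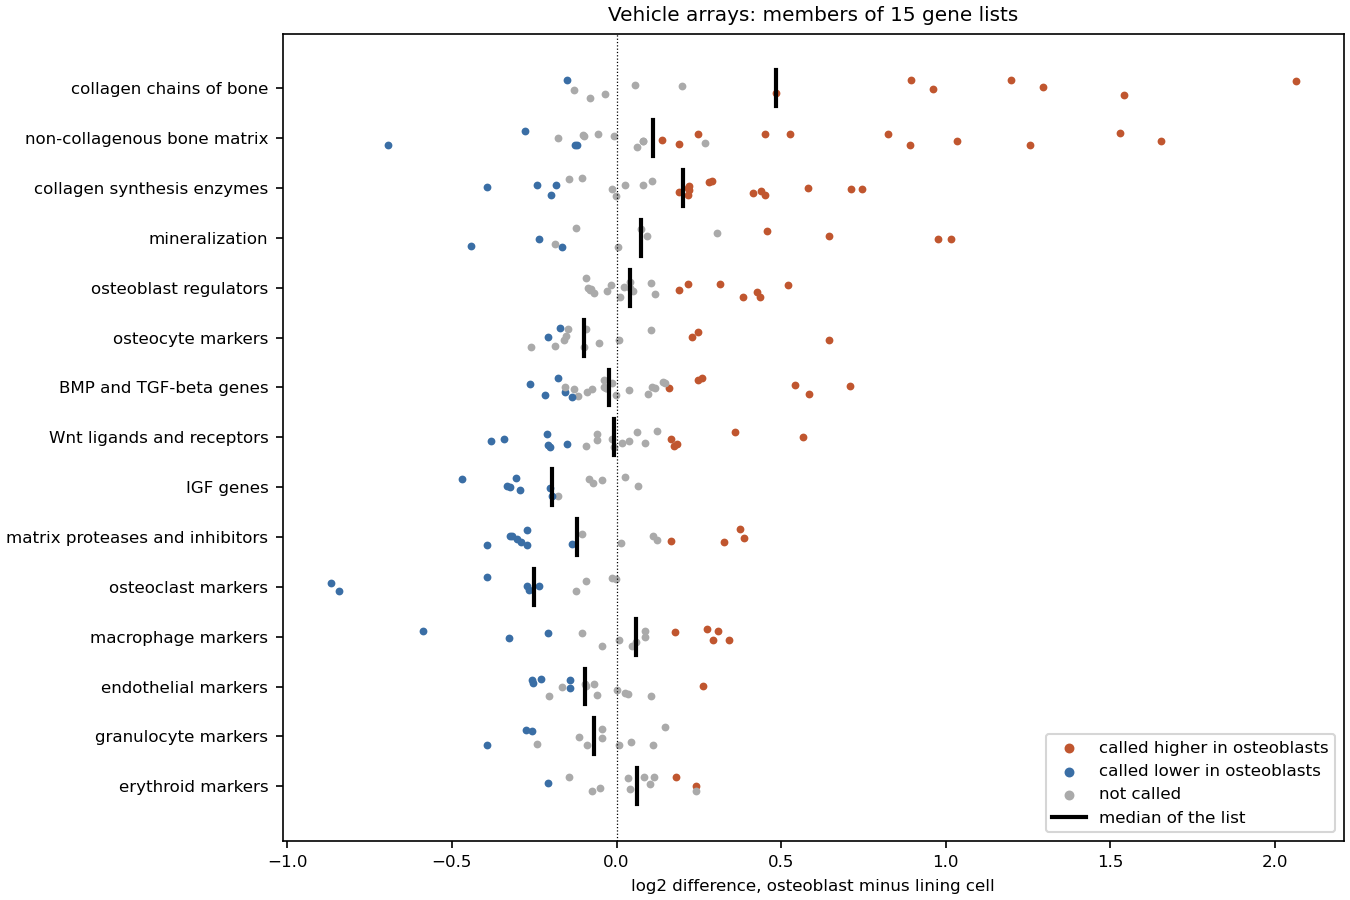
Difference between captures (osteoblast minus lining cell, log2) of every tested member of 15 gene lists, with the median of each list as a black bar. The bone matrix lists reach furthest above 0. The medians of the osteoclast and IGF lists lie furthest below it, and those of several other lists lie below it by less.

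Among osteoblast regulators 7 of 21 were higher and none was lower, beside 18.8% and 19.1% of all genes, and the median was 0.04. The transcription factors Twist1, Msx1 and Dlx5, known in skeletal patterning and the osteoblast lineage, differed by 0.52 (SE 0.09), 0.43 (SE 0.06) and 0.39 (SE 0.09), with adjusted p of 1.02e-06, 3.26e-09 and 0.000303. Tmem119, a membrane protein that promotes osteoblast differentiation, differed by 0.43 (SE 0.06, adjusted p = 2.60e-08). With arrays centred on the median of the genes tested, 7 were higher and 6 lower. Of 15 osteocyte markers tested 3 were higher and 2 lower, beside 18.8% and 19.1% of all genes, with a median of -0.10. Their mean level was 4.86 to 5.55 in osteoblasts and 4.90 to 5.61 in lining cells. Sost, which encodes sclerostin, exceeded the median of its array in 0 of 80 arrays.

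Wnt pathway genes were called in both directions, as were all genes (18.8% higher, 19.1% lower). Of ligands and receptors 5 of 21 were higher and 6 lower (median -0.01), of antagonists 2 of 8 were higher and 1 lower (median -0.04), and of feedback and target genes 4 of 16 were higher and 2 lower (median -0.03). With arrays centred on the median of the genes tested, 2 ligands and receptors were higher and 13 lower, and as deposited 19 were higher and 0 lower, with 5 of 21 above the median difference of all genes on both scales. Lrp4, the receptor that holds sclerostin at the cell surface, was 3.66, 4.12 and 5.76 in osteoblasts and 2.92, 3.64 and 5.08 in lining cells. All 40 osteoblast arrays were above the lining cell mean of their day, although the ranges overlapped (0.57, SE 0.06, adjusted p = 1.43e-13). The Frizzled receptor Fzd4 differed by 0.36 (SE 0.06, adjusted p = 2.20e-07), the antagonist Apcdd1 by 0.36 (SE 0.05, adjusted p = 5.95e-08) and the target Ccn4, also called WISP1, by 0.32 (SE 0.06, adjusted p = 2.85e-05). The ligands Wnt5b and Wnt1 were lower by -0.38 (SE 0.07, adjusted p = 2.03e-05) and -0.34 (SE 0.06, adjusted p = 6.60e-07), each in 35 of 40 arrays, and Dkk3 by -0.31 (SE 0.07, adjusted p = 0.000133). The deposited scale gave 0.15, 0.16 and 0.22 for these 3 genes. Lef1, a transcription factor of the pathway, was not called (-0.18, SE 0.09, adjusted p = 0.0844).

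Of 28 BMP and TGF-beta genes 6 were higher and 5 lower, with a median of -0.02, close to that of all genes, beside 18.8% and 19.1% of all genes called. With arrays centred on the median of the genes tested, 5 were higher and 13 lower. The 3 highest belong to activin and BMP signalling. Inhba, the activin A subunit, differed by 0.71 (SE 0.08, adjusted p = 6.69e-12), the activin receptor Acvr2a by 0.54 (SE 0.05, adjusted p = 8.51e-14, higher in 40 of 40 arrays) and the decoy receptor Bambi by 0.58 (SE 0.07, adjusted p = 1.08e-11). The inhibitor Smad7 was lower by -0.22 (SE 0.06, adjusted p = 0.00133), and its difference was 0.15 on the deposited scale. The IGF genes, growth factors stored in bone matrix with their binding proteins, had 7 of 13 lower in osteoblasts and 0 higher. Of all genes, 19.1% were lower and 18.8% higher. The median of the IGF genes was -0.20. Igfbp5 was 3.74, 5.12 and 6.68 in osteoblasts and 4.21, 5.62 and 7.07 in lining cells, with nearly full overlap (-0.47, SE 0.10, adjusted p = 0.000121, lower in 29 of 40 arrays). Igfbp7, Igfbp6 and Igf2 were lower by -0.33, -0.32 and -0.31, each in at least 32 of 40 arrays. Igf1, the main circulating growth factor of the family, was not called (0.07, SE 0.08, adjusted p = 0.534). Other Igf1 probe sets, of lower signal, differed by 0.23 (SE 0.07) and -0.01 (SE 0.03). As deposited, 12 of the 13 were called higher, with 11 of the 13 below the median difference of all genes. A second probe set of Igfbp6 differed by 0.28, in the opposite direction to the first.

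Matrix proteases and their inhibitors were higher for 4 of 16 and lower for 8, beside 18.8% and 19.1% of all genes, with a median of -0.12, whereas 12 were called higher and 0 lower on the deposited scale, with 12 of 16 below its median difference. The gelatinase Mmp2 and the membrane protease Mmp16 were higher by 0.38 (SE 0.09, adjusted p = 0.000342) and 0.39 (SE 0.08, adjusted p = 4.40e-05). The gelatinase Mmp9, abundant in osteoclasts and granulocytes, was lower by -0.39 (SE 0.06, adjusted p = 4.11e-07), the collagenase Mmp13 by -0.30 (SE 0.08, adjusted p = 0.00216) and the inhibitor Timp2 by -0.32 (SE 0.06, adjusted p = 2.98e-05). The last 3 had differences of 0.08, 0.16 and 0.16 on the deposited scale. Probe sets disagreed for Mmp2 and Timp2, whose second sets differed by -0.16 and 0.28.

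Osteoclast markers were lower in osteoblasts for 6 of 10 and higher for 0, beside 19.1% and 18.8% of all genes. Their median was -0.25 (7 called higher and 2 lower on the deposited scale, with 8 of 10 below its median difference). Acp5, the tartrate-resistant acid phosphatase of osteoclasts, was 8.13, 9.49 and 11.42 in osteoblasts and 8.87, 10.29 and 12.17 in lining cells. Ctsk, the collagen-degrading cathepsin K, was 10.04, 11.55 and 13.07 in osteoblasts and 10.77, 12.50 and 14.05 in lining cells. Both genes overlapped between captures but were below the lining cell mean of the day in 40 (Acp5) and 39 (Ctsk) of 40 osteoblast arrays. The differences were -0.87 (SE 0.09, adjusted p = 1.66e-12) and -0.84 (SE 0.09, adjusted p = 4.16e-13), and both were also below 0 and called on the deposited scale. Tcirg1, a subunit of the osteoclast proton pump, was lower by -0.27 (SE 0.07, adjusted p = 0.000505), against 0.21 on the deposited scale. The mean level of the 10 markers was 7.12 to 8.08 (median 7.48) in osteoblasts and 7.39 to 8.43 (median 7.77) in lining cells. Its part in the differences of Spp1 and Cd68, which osteoclasts also express, was not tested. Mmp9 is among the 10 markers and also on the protease and granulocyte lists, and is counted as lower in each. The osteoclast receptors Calcr and Tnfrsf11a were above the array median in 3 and 1 of 80 arrays and were not tested. Of 6 osteoclast regulators tested, Ptgis, the prostacyclin synthase, was higher (0.51, SE 0.09, adjusted p = 5.88e-06), 1 other member was lower and the median was -0.02. Tnfsf11 (RANKL) and Tnfrsf11b (osteoprotegerin) exceeded the array median in 0 and 2 arrays and were not tested.

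Macrophage markers were divided, with 5 of 15 higher and 3 lower (median 0.06), beside 18.8% and 19.1% of all genes. The scavenger receptor relative Cd68 and the growth factor receptor Csf1r, which osteoclasts and their precursors also carry, were lower by -0.59 (SE 0.08, adjusted p = 1.10e-09) and -0.33 (SE 0.06, adjusted p = 2.91e-06). Adgre1 (F4/80) was higher by 0.34 (SE 0.07, adjusted p = 6.31e-05, higher in 37 of 40 arrays) and Aif1 by 0.31 (SE 0.07, adjusted p = 9.34e-05), although a second probe set of Aif1 differed by -0.14. The mean macrophage level was 7.07 to 7.74 in osteoblasts and 7.20 to 7.64 in lining cells. Class II antigen presentation genes had 2 of 10 higher, led by RT1-Bb (0.66, SE 0.11, adjusted p = 6.80e-07), beside 18.8% of all genes. Cd74, the invariant chain, was not called (-0.03, SE 0.06, adjusted p = 0.757). Among mesenchymal stromal genes 3 of 14 were higher and 4 lower (median 0.02), beside 18.8% and 19.1% of all genes. Pdgfra, a receptor of mesenchymal progenitors, differed by 0.32 (SE 0.07, adjusted p = 0.000105). Vcam1, an adhesion molecule of marrow stroma and macrophages, was lower by -0.51 (SE 0.10, adjusted p = 4.83e-05), and Cxcl12, the chemokine of stromal niches, by -0.17 (SE 0.05, adjusted p = 0.0102).

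Among markers of marrow and other tissues, those of nerve and Schwann cells stood lowest, with 1 of 7 higher, 4 lower and a median of -0.20 (6 higher and 0 lower as deposited, with 5 of 7 below the median difference of all genes there). Of 6 chondrocyte markers none was called, beside 37.9% of all genes. Of all genes, 18.8% were called higher and 19.1% lower, beside which the counts of each marker list stand. Erythroid markers had 2 of 12 higher and 1 lower (median 0.06), granulocyte markers 0 higher and 3 of 12 lower (-0.07, and 0 higher and 10 lower with arrays centred on the median of the genes tested), and B-lineage markers 1 of 9 higher and 2 lower (0.01). T and NK markers had 1 of 16 higher and 4 lower (-0.01), megakaryocyte markers 2 of 14 higher and 3 lower (-0.06), and endothelial markers 1 of 16 higher and 5 lower (-0.09). Adipocyte markers had 1 of 18 higher and 3 lower (-0.02), and skeletal muscle markers 1 of 11 higher and 1 lower (-0.01). A score of marrow markers averaged 7.91 ± 0.18 in osteoblast arrays and 7.93 ± 0.17 in lining cell arrays (SD, n = 40 each).

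Lists of general cell functions were called in both directions. Of 45 secretory pathway genes 11 were higher and 4 lower (median 0.02), of 48 respiratory chain genes 12 were higher and 10 lower (-0.03), and of 29 ribosomal protein genes 4 were higher and 2 lower (0.02), beside 18.8% and 19.1% of all genes. With arrays centred on the median of the genes tested, these counts were 4 and 13 for the secretory pathway, 10 and 19 for the respiratory chain and 2 and 17 for ribosomal proteins. Rpl39, a small protein of the large ribosomal subunit, lay outside that list and did not overlap: 4.82, 5.38 and 5.88 in osteoblasts and 3.56, 4.23 and 4.80 in lining cells. Its difference was 1.20 (SE 0.05, adjusted p = 2.86e-32). Ribosomal protein genes have many processed copies in the genome, which a probe set may also read. Tbcc, a tubulin folding cofactor, was 4.32 to 5.30 in osteoblasts and 3.47 to 4.29 in lining cells (0.86, SE 0.05, adjusted p = 2.88e-27). Ndufc1, a respiratory chain subunit outside the list, was 5.58 to 6.92 in osteoblasts and 4.82 to 6.05 in lining cells (1.02, SE 0.05, adjusted p = 3.08e-28). These 3 genes had a narrow spread in both captures, unlike the matrix genes. Of 36 cell cycle genes 6 were higher and 5 lower (median 0.04), beside 18.8% and 19.1% of all genes. Nusap1 and Kif20a, both mitotic spindle proteins, differed by 0.44 (SE 0.05, adjusted p = 9.39e-11) and -0.40 (SE 0.04, adjusted p = 1.53e-12). Immediate early and heat shock genes had 5 of 19 higher and 2 lower (median 0.05). Interferon response genes had 2 of 18 higher and 2 lower (-0.03). Both stand beside the same shares of all genes.

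Among other genes with large differences, Cpe, the peptide hormone-processing carboxypeptidase E, was 4.54, 6.94 and 9.50 in osteoblasts and 3.88, 5.64 and 7.78 in lining cells (1.35, SE 0.12, adjusted p = 2.43e-15). Cpq, a plasma carboxypeptidase, and Ablim3, an actin-binding protein, were above the lining cell mean of the day in 40 of 40 osteoblast arrays each, with differences of 1.05 (SE 0.09) and 1.11 (SE 0.08). A second probe set of Ablim3 differed by 0.27. Mt3, a metal-binding metallothionein, had the most negative difference: it was 3.62, 4.38 and 5.47 in osteoblasts and 4.86, 5.44 and 7.72 in lining cells. Of the osteoblast arrays, 35 lay below every lining cell array, and the difference was -1.12 (SE 0.09, adjusted p = 5.39e-19, lower in 39 of 40 arrays). Gask1b, a Golgi kinase relative, Gcat, an enzyme of threonine breakdown, and Mtch2, a mitochondrial outer membrane protein, were lower by -0.79, -0.77 and -0.73, each in at least 37 of 40 arrays. A second probe set of Mtch2 differed by 0.23 (SE 0.06), in the opposite direction. Among other genes with several probe sets, a further set differed by 0.17 for Lox, 0.07 for Inhba, 0.05 for Twist1, 0.13 for Fzd4 and -0.02 for RT1-Bb. A set with a difference above 0 was found for Igf2 (0.18), Igfbp5 (0.15), Smad7 (0.10) and Tnrc6b (0.08), and one of Cxcl12 was at 0.0024. Sets of lower signal than the one used were not tested further.

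The difference between captures was then followed over the 8 days. Dependence on day was called for 625 genes (5.47%; F test of 7 interaction terms, adjusted over all genes), and for 84 genes with the signal range of the array as a covariate. Within single days the number called ran from 58 (0.508%) on day 197 to 2025 (17.7%) on day 29. Signal range varied as well, and averaged 3.48, 3.53, 3.04, 2.68, 3.53, 3.44, 3.39 and 3.08 in osteoblasts and 3.08, 3.13, 2.83, 2.67, 3.39, 3.23, 3.27 and 3.05 in lining cells, from day 8 to day 309. The day of death and any processing batch cannot be told apart. Erythroid markers averaged 7.80 to 8.19 over both captures up to day 183 and 8.99 to 9.19 from day 197 on, and their part in the day pattern was not tested.

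Bglap was higher in osteoblasts on each day while its level in both captures moved. Its mean was 11.89 in osteoblasts and 10.04 in lining cells on day 8, and 9.70 and 7.56 on day 309. The differences were 1.85, 1.74, 0.88, 1.44, 1.22, 2.15, 1.81 and 2.14 from day 8 to day 309, all on the osteoblast side and with no call of day dependence (adjusted p = 0.499). Lox differed most on the early days, by 1.56, 1.06, 0.29, 0.45, 0.47, 0.50, 0.75 and 0.63 (adjusted p for day = 0.00118). Slc13a5 differed by 1.54, 1.34, 0.22, 1.27, 0.62, 1.18, 1.03 and 0.62 (adjusted p = 0.00601), with day 85 lowest. Col11a1 differed by 1.96 and 2.03 on days 8 and 29 and by 0.39 to 0.92 afterwards (adjusted p = 0.00775), and Col5a2 by 2.29 and 1.99 on those days and by 0.65 to 1.79 afterwards (adjusted p = 0.0280). The median of the 13 collagen chains was 0.80, 0.70, 0.17, 0.53, 0.36, 0.56, 0.49 and 0.32 over the days. Cd68 was lower in osteoblasts by -1.08, -1.31, -0.82, -0.63, -0.35, -0.38 and -0.43 up to day 267 and differed by 0.31 on day 309 (adjusted p = 0.000115). Vcam1 differed by -0.08, -0.11, -0.22, -1.26, -0.43, 0.13, -0.74 and -1.39 (adjusted p = 0.00943), with the size largest on days 183 and 309. Ctsk differed by -0.56 to -1.14 on every day and showed no called dependence on day (adjusted p = 0.933).

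**Figure D4:**
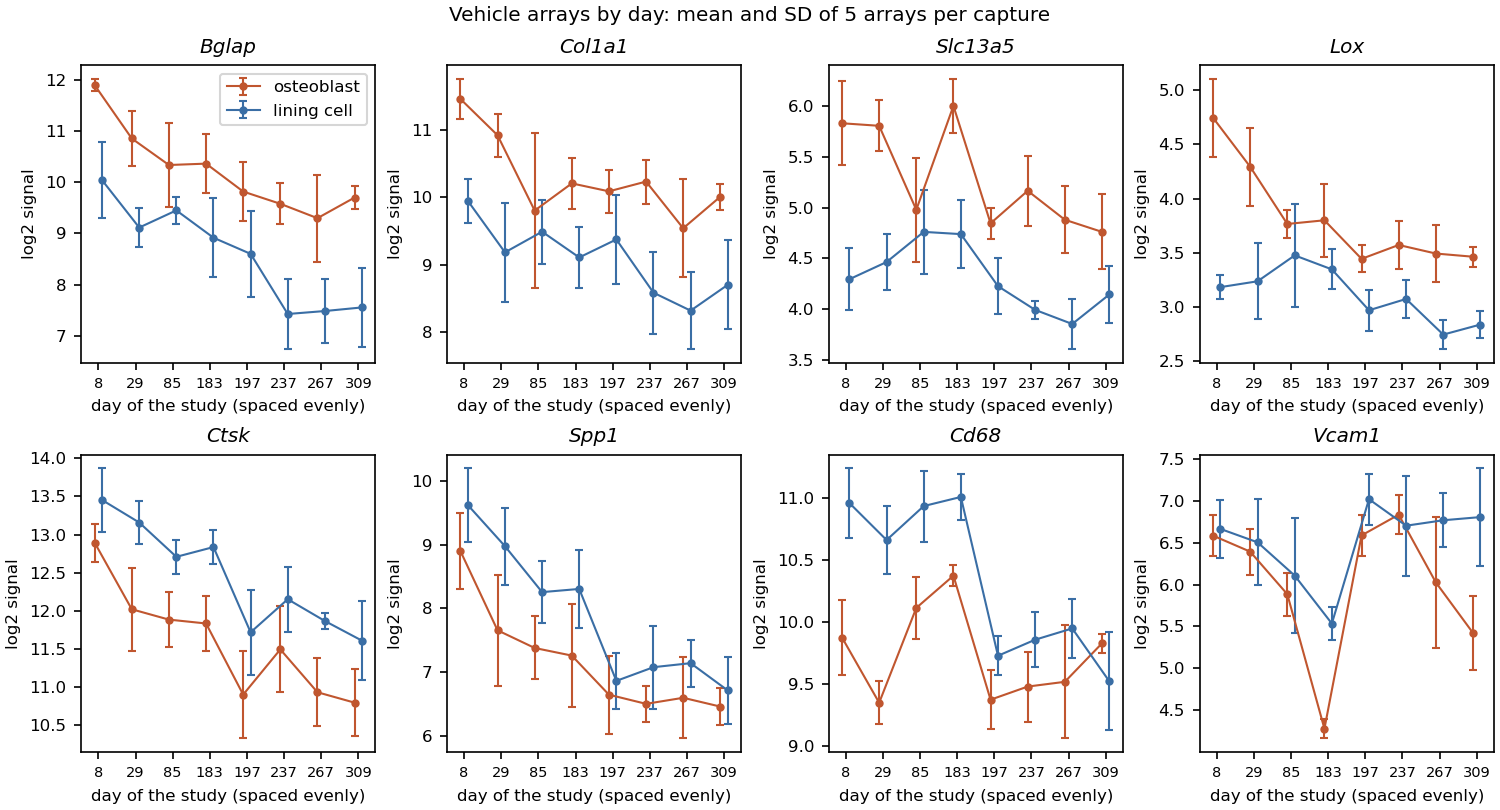
Mean log2 level and SD of 5 arrays for 8 genes on each day, for osteoblasts and lining cells, with the days evenly spaced. The means of Bglap and Col1a1 are higher in osteoblasts on each day, Lox is furthest apart on the early days, and Cd68 is lower in osteoblasts on the early days and not on day 309.

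Several genes with the smallest p in the day test had no common difference between captures across the days. Rc3h2, Atf1 and Slbp, which encode an RNA-binding protein, a transcription factor and a histone mRNA-binding protein, were not called in the fit of all days, and were higher in osteoblasts on day 29 by 1.12, 0.75 and 0.58 and lower on day 309 by -1.38, -0.60 and -1.11. Ddx5, an RNA helicase, was higher by 0.64 on day 29 and lower by -1.12 on day 183, but its second probe set differed in the other direction over all days (0.52 against -0.24). Tnrc6b, a silencing complex protein, was lower by -1.81 on day 237. The proliferation marker Mki67 was not called in that fit (0.11, SE 0.05, adjusted p = 0.0754) and differed by 0.62 on day 29 and by -0.24 on day 183. Smpd3, Plod2 and Col24a1 were furthest apart on days 8 and 29, with differences of 1.27 and 0.78, 1.19 and 1.27, and 0.80 and 1.10, and Mtch2 on day 309 (-1.58).

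The same contrast was available in rats given the antibody. Their captures also differed in scale as deposited, with a median difference of all genes of 0.46 at 50 mg/kg. Offsets of single probe sets between captures cannot be told apart from cell differences here either. On days 8 to 183, 39 arrays at 50 mg/kg and 39 at 3 mg/kg were fitted with 40 vehicle arrays of those days, over 11725 genes. Osteoblasts differed from lining cells at 1609 genes higher (13.7%) and 1191 lower (10.2%) at 50 mg/kg, and at 1684 genes higher (14.4%) and 1480 lower (12.6%) at 3 mg/kg, beside 1631 (13.9%) and 1560 (13.3%) in vehicle on the same days. Each of the 15 genes higher by at least 1 in vehicle was called higher at both doses. In the order vehicle, low dose and high dose, Col11a2 differed by 2.19, 2.36 and 2.82, Bglap by 1.46, 1.13 and 1.57, Col1a1 by 1.14, 0.93 and 0.89, and Cthrc1 by 1.65, 1.54 and 1.90. Acp5 differed by -0.929, -0.997 and -1.63, Ctsk by -0.87, -0.93 and -1.74, and Mt3 by -1.26, -1.47 and -1.60.

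**Figure D5:**
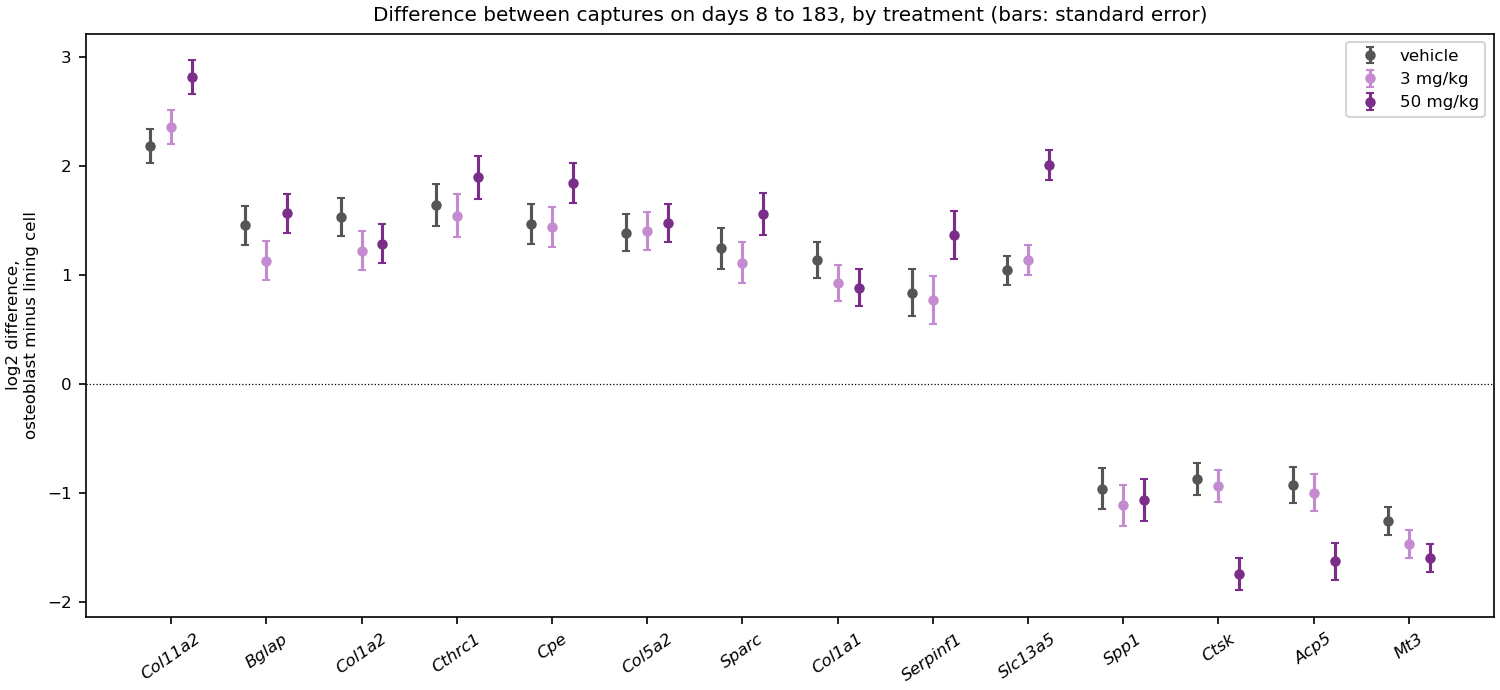
Difference between captures (osteoblast minus lining cell, log2) of 14 genes by treatment (vehicle, then 3 and 50 mg/kg) on days 8 to 183, with SE bars. The difference of Slc13a5 is larger at 50 mg/kg than in vehicle, the only such change that was called. Ctsk, Acp5 and Mt3 have their most negative values at 50 mg/kg, and Col11a2, Bglap and Cthrc1 their highest, whereas Col1a1 is furthest apart in vehicle.

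Whether the difference itself changed under antibody was tested gene by gene. At 50 mg/kg against vehicle it was called for 1 gene (0.00853%), Slc13a5. The mean level of Slc13a5 was 6.86 ± 0.72 in osteoblasts at 50 mg/kg (SD, n = 19) and 5.61 ± 0.51 in vehicle osteoblasts (SD, n = 20). In lining cells it was 4.85 ± 0.56 at 50 mg/kg and 4.56 ± 0.35 in vehicle (SD, n = 20 each). The difference between captures was 2.01 at 50 mg/kg and 1.04 in vehicle, which differ by 0.97 (SE 0.19, adjusted p = 0.0172). The size was 0.75 to 1.11 when 1 replicate number was left out of every group, with adjusted p of 0.0508, 0.363 and 0.311 without replicates 1, 3 and 5, and under 0.05 without replicates 2 and 4. Ctsk and Ptgis came next among the genes described, with changes of -0.87 (SE 0.21) and 0.88 (SE 0.20), both at an adjusted p of 0.127, and Acp5 had -0.70 (SE 0.24, adjusted p = 0.508). At 3 mg/kg against vehicle limma called 0 genes, with 423 genes (3.61%) at an unadjusted p under 0.05, against 758 (6.46%) at 50 mg/kg. Both comparisons use the same vehicle arrays.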

How the data were processed

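Laser-captured osteoblasts and lining cells were profiled on Affymetrix rat expression arrays from amplified RNA, 1 sample per array. The authors deposited linear intensity values made by RMA, and per the submitters' processing notes the tools were Affymetrix Expression Console, R 3.0.1 and affy 1.38.1. Which arrays were normalized together was not stated in the labels. Values (2.94 to 28282) were turned into log2 and quantile normalized over the 80 arrays. Of 31042 probe sets, 20826 named 1 gene, 436 several and 9780 none; each of 14217 genes took its probe set of highest mean (4525 had several). Genes above the array median in at least 5 arrays were tested with limma 3.58.1 (R 4.3.3, statmod 1.5.0, data.table, version 1.17.8), with day as covariate and Benjamini-Hochberg adjusted p under 0.05. Day dependence used 16 group means, and antibody arrays a fit of 118 arrays.

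The lists and members were chosen with earlier results of these data known. Named genes were the 12 largest of each direction with 1 sign on all days, up to 4 called members of each direction per list, fixed bone genes and the 6 smallest p of the day test, and the text prints part of them. Lists are described by counts and medians, without a set test. Some genes are on several lists and count in each. P-values treat arrays as separate samples, although both captures of a day come from the same rats by the design text, and leave any such pairing out. No 2 arrays were alike beyond a correlation of 0.988. In simulated data with 50 changed genes per size, 34 were recovered at a log2 difference of 0.25, 49 at 0.5 and 50 at 1, and 24 of 50 in the day test for a change of 1 on 1 day. Unchanged genes made up 1.61% of the calls, and 7.69% in the day test. The simulated noise was independent between arrays, without shared rats or scale effects. Far fewer genes were changed than the 37.9% called here, so recovery in the real arrays may differ.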

Additional observations from a re-analysis of the deposited data

Results flagged for a closer look

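Within groups of 5 arrays, 21 of 256 tests of a measure (16 measures in 16 groups) had an array apart from the others by Dixon's 95% criterion, which chance meets in about 1 in 20 groups. The measures were mean marker levels, a marrow marker score, signal range and the array median. In osteoblasts, replicate 4 of day 85 had a signal range of 2.95 (next 3.06), and replicate 3 of day 309 a marrow marker score of 7.89 (next 8.05). Replicate 3 of day 29 had 7.54 for erythroid (next 8.18) and 4.92 for skeletal muscle markers (next 4.02), and replicate 2 of that day 6.87 for B-lineage markers (next 6.48). Replicate 2 of day 8 had 3.47 for chondrocyte (next 3.43) and 4.16 for nerve and Schwann markers (next 3.91). Erythroid markers were 9.56 in replicate 4 of day 197 (next 9.14), granulocyte markers 8.62 in replicate 3 of day 183 (next 8.38) and skeletal muscle markers 4.00 in replicate 5 of day 309 (next 4.12).

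In lining cells, replicate 5 of day 183 had a marrow marker score of 7.59 (next 7.70), and replicate 4 of day 197 had 7.85 (next 8.07) with 7.91 for granulocyte markers (next 8.50). Replicate 4 of day 85 had 7.60 for macrophage (next 7.49) and 5.55 for T and NK markers (next 5.14). T and NK markers were also apart in replicate 2 of day 29 at 4.70 (next 4.98) and in replicate 2 of day 309 at 4.97 (next 4.69). On day 237, osteoclast markers were 8.03 in replicate 2 (next 7.79) and skeletal muscle markers 3.81 in replicate 4 (next 3.90). Erythroid markers were 7.99 in replicate 3 of day 8 (next 7.80), and B-lineage markers 6.10 in replicate 3 of day 309 (next 6.22).

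The difference between osteoblasts and lining cells varied with day at 16 of the genes described (F test of the interaction, limma). The adjusted p was 3.15e-05 for Atf1 and Rc3h2, 8.70e-05 for Slbp, 0.000115 for Cd68, 0.000223 for Ddx5, 0.000426 for Tnrc6b and 0.00118 for Lox. It was 0.00601 for Slc13a5, 0.00612 for Mtch2, 0.00775 for Col11a1, 0.00943 for Vcam1, 0.0106 for Smpd3, 0.0124 for Mki67 and Plod2, 0.0166 for Col24a1 and 0.0280 for Col5a2. The difference of Slc13a5 was larger at 50 mg/kg than in vehicle by 0.97, the 1 gene called in that test.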

How the results depend on the processing

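Counts of genes that differed between captures moved with the scale of the arrays, and the day test most with signal range as covariate (84 genes, against 625). In vehicle, 10880 genes were higher and 23 lower in osteoblasts on the deposited scale, 4717 and 1051 with arrays centred on their medians, and 1362 and 4802 centred on the median of the genes tested, a setting added after the data were seen. Lower genes numbered 1431 without day as covariate and 1183 from days 197 to 309 alone. Of differences of at least 1, 135 were higher on the deposited scale and 9 with tested-gene centring; lower ones numbered 0 deposited, 0 median centred, 2 with tested-gene centring, 4 from days 8 to 183 and 0 from days 197 to 309. The day test called 1130 genes with median centring and 963 with array weights, and the covariate was also added after the data were seen. At 50 mg/kg, 10200 were higher and 33 lower as deposited, 4386 and 762 median centred, and 3683 lower with tested-gene centring. At 3 mg/kg these were 10049, 32, 4782, 958 and 3909. Array weights gave 2 higher and 1 lower gene for 50 mg/kg minus vehicle.

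Leaving out 1 array in turn gave 2104 to 2212 genes higher, 2119 to 2234 lower, 14 to 17 higher and 1 to 1 lower by at least 1, and 428 to 805 in the day test. Leaving out a replicate number of every group gave 1165 to 1405 higher and 875 to 982 lower at 50 mg/kg, 1243 to 1598 and 1088 to 1354 at 3 mg/kg, and 0 to 1 for 50 mg/kg minus vehicle. Signs that reversed on the deposited scale were Col14a1 0.0936, Plod1 0.14, Enpp1 0.0296, Alpl 0.29, Mepe 0.36, Wnt5b 0.15, Wnt1 0.16, Dkk3 0.22, Lef1 0.35, Smad7 0.15, Igfbp5 0.0452, Igfbp7 0.20, Igfbp6 0.15, Igf2 0.19, Mmp9 0.0756, Mmp13 0.16, Timp2 0.16, Tcirg1 0.21, Vcam1 0.0293, Cxcl12 0.20, Csf1r 0.17, Cd74 0.42, Kif20a 0.0887, Atf1 0.46, Ddx5 0.26 and Tnrc6b 0.0154. Slbp was -0.33 with tested-gene centring, and Ddx5 0.14 as the mean of its probe sets. Days 8 to 183 alone ended the calls of 8 described genes (Col14a1, Cxcl12, Ddx5, Dlx5, Dmp1, Ibsp, Ptgis and Tnrc6b), and days 197 to 309 alone those of 12 (Alpl, Cd68, Col14a1, Csf1r, Dkk3, Igf2, Igfbp6, Mmp13, Smad7, Smpd3, Tcirg1 and Timp2). The mean of probe sets ended those of Aif1, Ibsp, Igfbp6, Mmp2 and Timp2, median centring those of Alpl, Csf1r, Cxcl12, Ddx5, Dkk3, Igfbp7, Mmp13, Tcirg1 and Wnt5b, and the fit without day those of Alpl, Cxcl12, Ddx5, Dmp1, Ibsp, Mmp13, Mmp2 and Tcirg1. Signal range as covariate ended those of Alpl, Dkk3, Ibsp, Igf2, Igfbp6, Smad7 and Tcirg1. Cd68 and Spp1 were not called as deposited, nor Ibsp with tested-gene centring, no filter, a trended prior or osteocyte arrays in the normalization. Beyond the scales' own shift, the cause of these changes was not tested. No paired analysis was possible because the labels do not tie arrays to rats, and replicate numbers follow deposit order. Some marker levels ran alike in that order: on day 29, erythroid markers were 8.25, 8.28, 7.54, 8.18 and 8.34 in osteoblasts and 8.37, 8.22, 7.55, 8.01 and 8.42 in lining cells. No fit used this. The files hold no detection call or background value, so weak signals have no stated floor.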
